A study of Mus musculus with 2 samples.

Results

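A set of 10 genes typical of the macrophages of the splenic red pulp were examined in sorted CD8+ T cells that lack Bcl11b: Spic, Slc40a1, Hmox1, Vcam1, Emr1 (current symbol Adgre1), C1qa, C1qb, C1qc, Cd5l and Apoe. They were taken by gene name from every spot on the arrays that is not a control, which gave 10 of 27597 genes, 14 of 41174 probes and 23 of 43379 gene spots. The genes were chosen by their ratios in this same knockout over wild type contrast, so their values are given as a description, with no test. The knockout samples were naive T cells of the CD8+ lineage, sorted as CD44low and CD25low from Bcl11bF/F/dLck-iCre mice. These mice carry loxP-flanked Bcl11b alleles, and a Cre recombinase under the distal Lck promoter deletes them in T cells late in thymic development. The wild type samples were the same sorted population from wild type mice. Both genotypes were on the C57BL/6 background and were sorted to a purity above 90%. Each of 2 arrays carried knockout RNA in the red dye (Cy5) and wild type RNA in the green dye (Cy3), and the labels call the pairs biological replicates. The labels do not say whether the wild type mice carried Cre or how many mice gave a sample. With the same dye orientation on both arrays, dye and genotype cannot be told apart.

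Red pulp macrophages engulf ageing red blood cells, open the haem ring and return the iron to the blood. Haem oxygenase 1 (Hmox1) cuts haem, ferroportin (Slc40a1) is the only known exporter of iron from cells, and the ETS-family factor Spi-C (Spic) is needed for these macrophages to form. Macrophages are also the main source of complement C1q, a recognition protein built from the A, B and C chains that binds immune complexes and dying cells. Naive CD8+ T cells are not known as a source of C1q.

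The brightest probe of all 10 genes gave a higher signal as scanned in the knockout channel than in the wild type channel on both arrays. Such signals are not normalised between the dyes. Median negative controls were also brighter in knockout on array 2 (1865 against 1120.2), but not on array 1 (985 against 1087). After normalisation the ratios of all 10 were above 0 on both arrays, as were those of 30.9% of the genes kept for testing. With its brightest probe every gene was well above background in the knockout channel on both arrays, by the scanner software's flag for each spot. In the wild type channel only Hmox1, Cd5l and Apoe were, on both arrays, and the other 7 genes were on neither. For these 7 the wild type signal has only an upper limit. The difference is given as a lower bound, for the mean of both arrays under the main processing. It is no floor under other processing. Without background subtraction the mean log2 ratios of all 7 but Slc40a1 fell below their bounds. The knockout over wild type log2 ratios, after background correction and loess normalisation, had a median of 1.67 (array 1) and 1.87 (array 2) over the 10 genes. Genes whose brightest probe was well above background in knockout on both arrays and in wild type on neither made up 1.61% of the 9273 genes kept for testing (149 genes), of which 7 belong to the 10.

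The arrays set the scale of these values. Negative control spots, which match no mouse transcript, had median signals of 985 and 1865 intensity units in knockout and 1087 and 1120.2 in wild type (arrays 1 and 2). The local background around spots had medians of 45 and 51.5 in knockout, against 35 and 37 in wild type, and it is the local background that was subtracted. Log2 ratios of all kept genes spread with an SD of 1.01 on array 1 and 0.41 on array 2, and 2504 and 263 genes differed more than 2-fold. Bcl11b itself, as the check of the labels, had log2 ratios of -1.45 and -1.73, a mean of -1.59 ± 0.19 (SD, n = 2), with an adjusted p of 0.075 by limma. The sources used here do not say which exons were deleted, so how far its probe reads the deletion is unknown. All 9 CD8 T cell markers exceeded background in knockout and in wild type on each array. Their summed processed signals were 241229 and 199640 in knockout, against 174992 and 173866 in wild type. With bulk RNA, more cells of a type and more RNA per cell cannot be told apart.

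**Figure D1:**
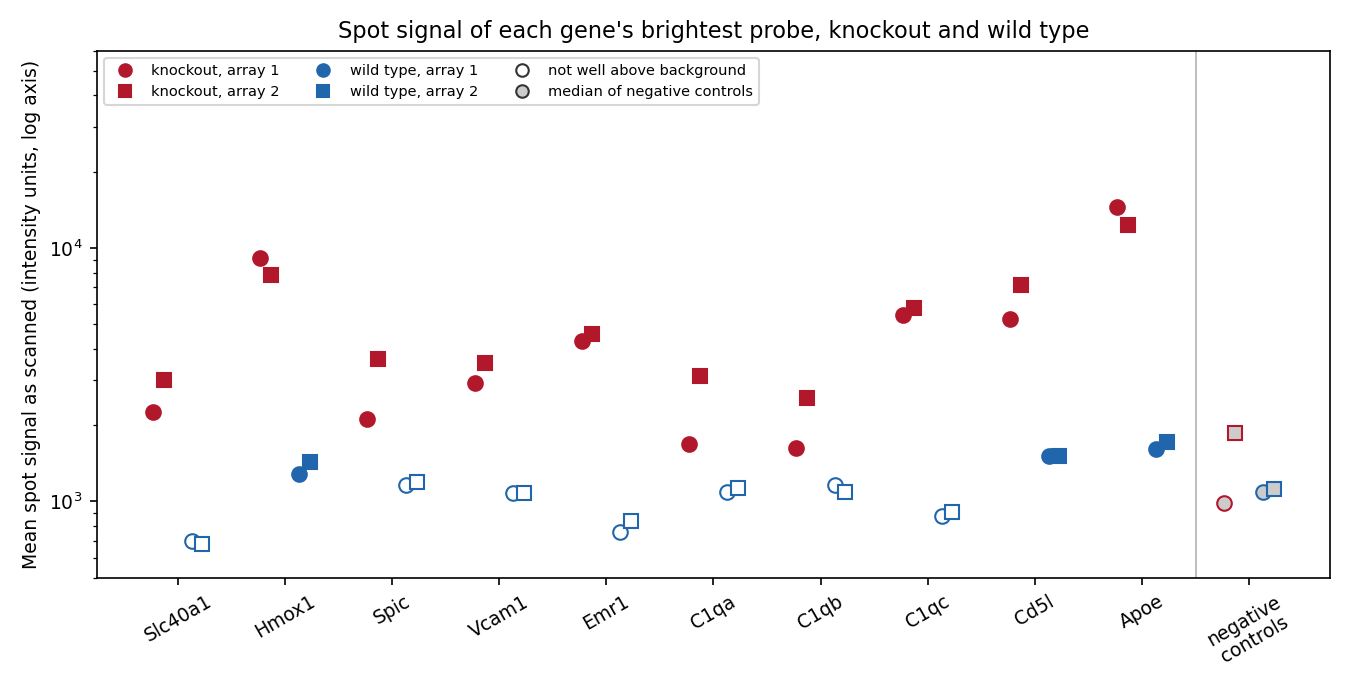
Mean signal of the brightest probe of each gene as scanned, in intensity units on a log axis, for knockout (red) and wild type (blue) on array 1 (circles) and array 2 (squares); open symbols were not well above background, and the last column gives the medians of negative control spots (grey fill). Every knockout point is filled, and wild type points are filled for Hmox1, Cd5l and Apoe only.

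Spic, the transcription factor of the group, is described first. By its brighter probe (mm8 chr10:88105107-88105166, minus strand) its signal was 2119 and 3656 in knockout, against 1159.9 and 1198 in wild type. Both wild type spots lay near the wild type negative controls. The log2 ratios were 0.75 and 1.30 (mean 1.03 ± 0.39, SD, n = 2), and by the bound over both arrays the knockout was at least 1.90-fold higher. With array 1 alone the bound was 1.68-fold. A second probe (chr10:88105220-88105279) gave 1704 and 2175 in knockout and 1102 and 1069.6 in wild type, with log2 ratios of 0.85 and 0.60. That probe was above background in knockout on array 1 only, and its bound was at least 1.23-fold. The 2 Spic probes thus had the same sign on both arrays, at different sizes.

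The iron exporter gene Slc40a1 (chr1:45852956-45853015, minus strand) had signals of 2259 and 3009.8 in knockout, against 699.6 and 676 in wild type. The wild type spots were dimmer than the median negative control. Its log2 ratios of 3.56 and 3.34 (mean 3.45 ± 0.16, SD, n = 2) have no measured wild type level behind them, and over the settings tried the mean lay between 1.54 and 4.11. By the bound, the knockout was at least 1.95-fold higher.

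Hmox1, the haem-cutting enzyme, is one of the few measured in both genotypes. Its probe (chr8:77996380-77996439, plus strand) had signals of 9144 and 7786 in knockout, against 1284 and 1424 in wild type. The log2 ratios were nearly equal on the arrays, at 1.94 and 2.02 (mean 1.98 ± 0.06, SD, n = 2), or 3.94-fold. Hmox2, the constitutive haem oxygenase, gave log2 ratios of -0.19 and -0.28.

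Vcam1 encodes an adhesion molecule for integrin alpha4 beta1 that stromal cells, endothelium and red pulp macrophages carry. Its brightest probe (chr3:116102302-116102361, minus strand) gave 2931 and 3518 in knockout, against 1075 and 1080.5 in wild type. The log2 ratios were 1.41 and 1.55 (mean 1.48 ± 0.10, SD, n = 2), and the knockout was at least 2.28-fold higher. The other two Vcam1 probes were not above background in either genotype on either array. One (chr3:116109058-116109117) gave 699.3 and 1144 in knockout and 736 and 713 in wild type, and the other (chr3:116118039-116118098) gave 954 and 1661 in knockout and 1000.4 and 989 in wild type. Their log2 ratios lay between -0.01 and 0.22, so the Vcam1 difference rests on a single probe.

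Emr1 encodes F4/80, the surface protein by which mouse macrophages are usually identified. Its brighter probe (chr17:57168755-57168814, plus strand) gave 4277 and 4585 in knockout, against 755 and 837 in wild type. Log2 ratios of 4.21 and 3.09 (mean 3.65 ± 0.79, SD, n = 2) came with a bound of at least 3.70-fold. The arrays differed by 1.11 on the log2 scale for Emr1, the largest such difference among the 10. A second probe (chr17:57096133-57096192) was not above background anywhere, with 971 and 1671 in knockout, 1003 and 992 in wild type and log2 ratios of 0.05 and 0.10 after rounding. Negative controls in the knockout channel were themselves brighter on array 2 than on array 1, as these unmeasured probes were.

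The genes of the C1q chains lie side by side. In the GRCm38.p6 annotation of RefSeq, C1qb (chr4:136880126-136886200), C1qc (chr4:136889801-136892936) and C1qa (chr4:136895916-136898844) fall within 18719 bases, with 3600 bases between C1qb and C1qc, 2979 between C1qc and C1qa, and no other annotated gene in the span. The 250 bases before an annotated start are shown for C1qb and C1qc, as neighbours with like ratios in sign. They are also shown for Cd5l and Apoe, whose genes lie elsewhere. The Apoe window shown is not the only one and lies within the annotated span of the gene (chr7:19696244-19701310). Capitals mark GAGGAA, a core that Spi-C and its relative PU.1 bind, or its reverse complement TTCCTC. Sequences are from RefSeq, read 5′ to 3′ on the gene's strand.
C1qb (chr4:136886201-136886450, minus strand): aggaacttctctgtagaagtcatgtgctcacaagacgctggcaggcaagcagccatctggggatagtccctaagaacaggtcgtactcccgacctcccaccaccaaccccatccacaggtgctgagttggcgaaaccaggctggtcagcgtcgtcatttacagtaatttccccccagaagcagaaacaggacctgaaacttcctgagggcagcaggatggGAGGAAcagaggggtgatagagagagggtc
C1qc (chr4:136892915-136893164, minus strand): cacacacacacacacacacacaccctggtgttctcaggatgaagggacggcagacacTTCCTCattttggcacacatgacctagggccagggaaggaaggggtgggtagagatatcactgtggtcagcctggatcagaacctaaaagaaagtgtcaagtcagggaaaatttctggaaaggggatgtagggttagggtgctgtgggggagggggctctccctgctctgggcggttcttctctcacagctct
Cd5l (chr3:87357631-87357880, plus strand): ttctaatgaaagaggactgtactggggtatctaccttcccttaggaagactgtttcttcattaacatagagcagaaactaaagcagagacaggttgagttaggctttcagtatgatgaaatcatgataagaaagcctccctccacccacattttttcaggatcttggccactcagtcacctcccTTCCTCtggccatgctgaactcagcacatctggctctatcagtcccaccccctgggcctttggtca
Apoe (chr7:19698399-19698648, minus strand): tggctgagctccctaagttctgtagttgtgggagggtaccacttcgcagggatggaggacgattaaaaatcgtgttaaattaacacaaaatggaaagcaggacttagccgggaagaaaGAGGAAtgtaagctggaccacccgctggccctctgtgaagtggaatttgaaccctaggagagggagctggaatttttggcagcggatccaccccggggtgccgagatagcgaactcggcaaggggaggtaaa
RefSeq promoter windows were at hand for 5 of the 10 genes (Spic, Cd5l, C1qb, C1qc and Apoe), 7 windows in all since Apoe has 3 annotated starts. GAGGAA on either strand stood in 5 of the 7 windows, in all genes but Spic, against 23.3% of 32851 windows of the same length over all genes. Every window shown holds these letters. The windows without them, those of Spic and of another Apoe start (chr7:19698622-19698871), are not shown. The letters TGANTCA, the core recognised by the haem-sensing repressor BACH1 with its MAF partners, stood in none of the 7 and in 6.75% of all windows. A match is a description of letters and is no evidence of binding.

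C1qc gave the steadiest large ratio of the 3 C1q genes. Its signals (chr4:136161927-136161986 in mm8, minus strand) were 5451 and 5813 in knockout, against 875 and 906 in wild type. The log2 ratios were 3.16 and 3.12 (mean 3.14 ± 0.03, SD, n = 2), and the knockout was at least 4.37-fold higher, the largest bound among the 7 genes with one. C1qa (chr4:136168570-136168629, minus strand) gave 1679 and 3130.2 in knockout, against 1088 and 1128 in wild type. Its log2 ratios were 0.88 and 1.20 (mean 1.04 ± 0.23, SD, n = 2), with a bound of at least 1.60-fold. C1qb (chr4:136152739-136152798, minus strand) gave 1618 and 2553 in knockout and 1157 and 1088 in wild type. Its log2 ratios of 0.57 and 0.90 (mean 0.73 ± 0.24, SD, n = 2) came with a bound of at least 1.34-fold. The order of the 3 chains cannot be read as one of transcript amounts, because each signal belongs to its own probe. The wild type spots also differed in brightness: those of C1qc, Slc40a1 and Emr1 were at or below 906, whereas those of C1qa, C1qb, Spic and the measured Vcam1 probe were at or above 1075.

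Cd5l and Apoe are secreted. CD5L, also called AIM, is a scavenger receptor-like protein of tissue macrophages. Its probe (chr3:87456828-87456887, plus strand) gave 5229 and 7110.1 in knockout, against 1505 and 1508 in wild type, where it was above background. The log2 ratios were 0.71 and 1.73 (mean 1.22 ± 0.72, SD, n = 2), or 2.32-fold, and the arrays differed more than for any other of the 10 but Emr1. On array 1 the Cd5l ratio stood above 71.5% of kept genes and on array 2 above 99.4%. Cd5l was not alone in this. On array 1 C1qb stood above 67.0% of kept genes, Spic above 72.8%, C1qa above 76.3% and Vcam1 above 87.4%. Their ranks on array 2 were 97.6%, 98.9%, 98.6% and 99.2%.

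Apoe encodes apolipoprotein E, a lipid carrier that macrophages secrete in large amounts, and its probe (chr7:18854905-18854964, minus strand) was printed in several spots. On array 1, 10 spots were used, and on array 2, 9 were, because 1 was flagged as an outlier by the scanner software. The mean signals were 14512 and 12269.5 in knockout, against 1602 and 1711 in wild type. Knockout spots ranged from 9815 through a median of 14885 up to 17778 on array 1 and lay between 11258 and 12921 on array 2. Wild type spots lay between 1358 and 1766 on array 1 and between 1645 and 1772 on array 2. The spots are copies of 1 probe on 2 arrays, and each genotype had its own dye, so their ranges do not measure the spread between samples. The log2 ratios were 1.94 and 2.26 (mean 2.10 ± 0.22, SD, n = 2), or 4.28-fold. Between spots on one array the log2 ratio had an SD of 0.14 (10 spots, array 1) and 0.03 (9 spots, array 2), both smaller than the SD between the arrays.

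**Figure D2:**
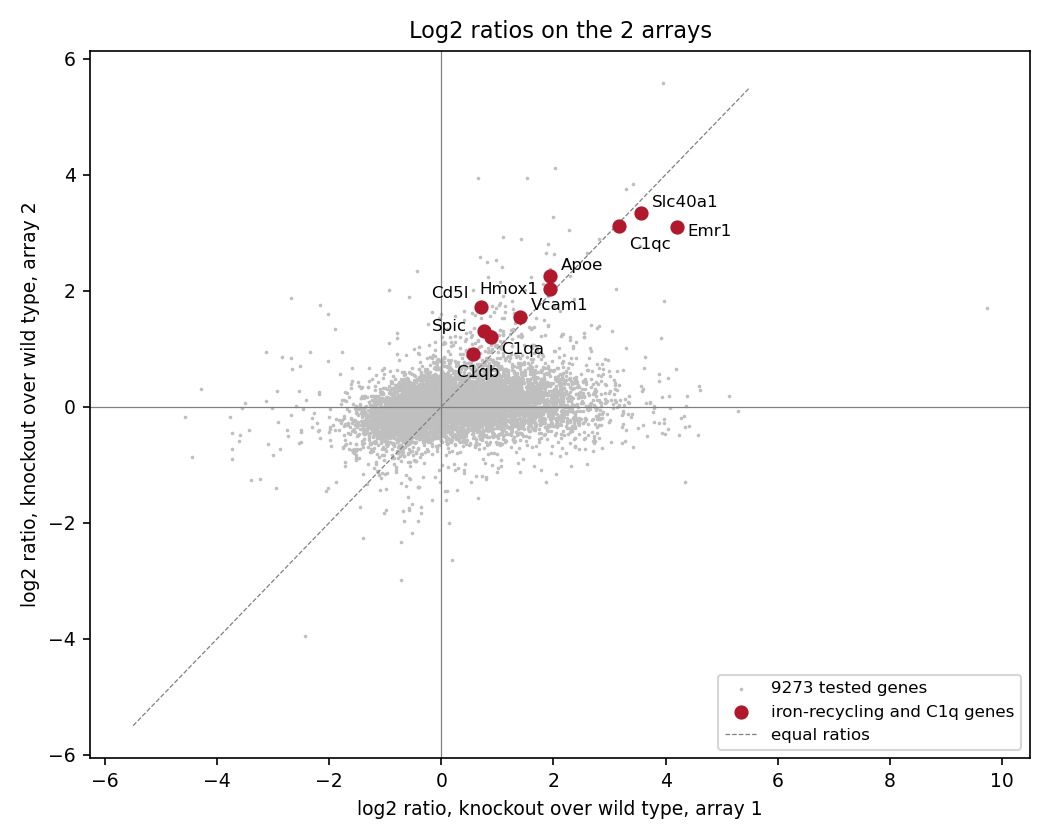
Log2 ratio (knockout over wild type) on array 1 (x axis) and array 2 (y axis) for the 9273 kept genes (grey points) and the 10 iron-recycling and C1q genes (red, named); the dashed line marks equal ratios. All kept genes spread further along the x axis (SD 1.01) than along the y axis (SD 0.41), and the 10 genes lie above 0 on both axes.

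The arrays differed by a median of 0.32 on the log2 scale for the 10 genes, against 0.54 for all kept genes, and the median of the mean ratios was 1.73, against 0.04. All 10 ratio pairs were above 0 on both arrays, as were 30.9% of kept genes (2868). More than 2-fold higher in knockout on both arrays were Slc40a1, Hmox1, Vcam1, C1qc, Apoe and Emr1, 6 of the 10, against 1.12% of kept genes (104). In the fit across all kept genes by limma (adjusted p threshold 0.05), 115 genes were higher in knockout (1.24%), among them Slc40a1, Hmox1, C1qc, Apoe and Emr1. A further 23 genes were lower (0.248%), none of the 10. One standard error, 0.50, applied to all genes in that fit, and the smallest mean log2 ratio that passed was 1.68 in size. Since the genes were selected on this contrast, these counts describe the selection and nothing is read from them. With the arrays scaled to the same spread, with the scanner software's processed signals or ratios, with the deposited values, or with dim probes kept, 0 genes passed in either direction. With median centring 63 were higher and 1 lower, and that centring put the median of all genes at 0.68, against 0.04.

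Genes of the wider pathways were counted in the same way. Of 31 iron and haem genes on the array, 18 were kept, and 0 passed in either direction, with a median mean log2 ratio of 0.13. The heavy chain of the iron store ferritin, Fth1, had signals of 147344 and 140659 in knockout, against 38428 and 38084 in wild type, which loess normalisation for its brightness turned into log2 ratios of -0.13 and 0.35. For the light chain, Ftl1, the ratios were -1.45 and 0.04. Biliverdin reductase, Blvra, which acts on the product of Hmox1, gave 0.40 and 0.22, and the iron sensor Aco1 gave 0.25 and 0.36. The mitochondrial iron importers Slc25a37 (1.09 and 0.16) and Slc25a28 (-0.91 and -0.06) had opposite signs. Keap1 gave 0.08 and -0.30, its partner Nfe2l2, an activator of Hmox1, 1.30 and -0.18, and Bach1, a repressor of Hmox1 and Spic, 0.16 and -0.04. For each of these 3 regulators the sign differed between the arrays. The plasma haem and haemoglobin carriers Hpx and Hp, the hepcidin gene Hamp and the haemoglobin receptor Cd163 were among 12 iron genes not above background in either genotype.

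Of 28 other complement genes and C1q receptors, 9 were kept. Their median was -0.16, and 1 was higher in knockout, Itgax (CD11c, the alpha chain of complement receptor 4), with 2.29 and 2.26 (mean 2.27 ± 0.02, SD, n = 2; limma adjusted p = 0.001). Itgax is also a dendritic cell and macrophage marker. Another Itgax probe was not above background in either genotype, with ratios of -0.12 and 0.55. The proteases that join C1q in the C1 complex, C1ra and C1s1, were not above background in either genotype. Of 24 genes of lipid handling and clearance of dying cells, 10 were kept, with a median of -0.16 and 0 past the threshold. The cholesterol exporter Abca1 had 2.62 and 0.64 (at least 2.29-fold higher, limma adjusted p = 0.063), and Lgals3 2.01 and 0.96. The phosphatidylserine-sensing kinase Tyro3 had negative ratios (-0.81 and -0.17). Among 6 kept genes of integrin ligands for VCAM1 and related adhesion, with a median of 0.04 and 0 past the threshold, Itgb2 had 0.20 and 0.23, Icam1 -0.33 and -0.01, and Itgb1 0.16 and 0.00. The medians of the iron, complement, lipid and adhesion lists changed sign under at least 1 other processing or with 1 array alone.

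Other macrophage markers were counted too. Of 20 on the array, 10 were kept, 3 were higher in knockout and 0 lower. The kept markers had a median mean log2 ratio of 1.50, which the filter partly sets, because 8 of the 10, all but Cd14 and Ctss, were kept through the knockout channel alone. Over all 20 markers, with no filter, the median was 0.96. Ctss, the cathepsin S gene and the one marker above background in all 4 channels, had a mean of 0.20, with 0.79 on array 1 and -0.40 on array 2. Csf1r, the receptor of macrophage colony-stimulating factor, had signals of 1744 and 3784 in knockout, against 741 and 818 in wild type. Its log2 ratios were 2.82 and 2.89, with a bound of at least 1.93-fold. Other Csf1r probes were not above background in either genotype, with ratios of -0.10 and -0.11, and of 0.22 and 0.56. Sirpa, an inhibitory receptor for CD47, gave 2.12 and 1.64 (at least 1.82-fold higher, limma adjusted p = 0.017). Its other probes were not above background either, with -0.14 and -0.19, and with 0.22 and 0.22. The Csf1r and Sirpa differences thus rest on a single probe each. Treml4, a receptor of splenic macrophages and dendritic cells, gave 1.44 and 1.22 (at least 2.51-fold, not past the threshold). The Fc receptors Fcgr1 (1.00 and 1.06) and Fcgr3 (0.81 and 2.50) did not pass either. Another Fcgr1 probe was not above background in either genotype, with -0.10 and -0.13. Another Fcgr3 probe was above background in knockout on array 2 only, with 0.36 and 1.31. Cd14, a receptor for bacterial lipopolysaccharide, had negative ratios (-0.40 and -0.08). Of 14 macrophage regulators 8 were kept, with a median of 0.15, and Csf1r was the one that passed. Spi1, which encodes PU.1, was not above background in either genotype. The part of other macrophage genes in the ratios of the 10 was not tested.

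Some myeloid genes were detected in wild type on array 2. Lysozyme, Lyz2, had 9295 and 10955 in knockout, against 829 and 6316 in wild type, so its log2 ratios were 4.03 and -0.38, and its call as higher (limma adjusted p = 0.023) rests on array 1. Mpeg1, a pore-forming protein of phagocytes, had 5963 and 6007 in knockout, against 910 and 2576 in wild type, with a log2 ratio of 0.28 on array 2 and a larger one on array 1. Aif1 had 2963 and 3933 in knockout, against 1029 and 1344 in wild type, with log2 ratios of 1.66 and 1.07, which lie within the range of the 10 genes. Other probes of Lyz2 (-0.26 and -0.24), Mpeg1 (0.14 and 0.10) and Aif1 (0.04 and 0.06) were not above background in either genotype. By their brightest probes Lyz2, Mpeg1 and Aif1 were above background in the wild type channel on array 2 and not on array 1. In contrast, Slc40a1, Spic, Vcam1, C1qa, C1qb, C1qc and Emr1 were not above background in wild type on either. The other macrophage markers Csf1r, Sirpa, Fcgr1, Fcgr3 and Treml4 shared the pattern of these 7 genes by their brightest probe. They were above background in knockout on both arrays and in wild type on neither. Summed processed signals of the macrophage markers were 35739 and 25853 in knockout, against 14511 and 29233 in wild type. Ctss, the brightest marker, weighs heavily in these sums. Its signals as scanned were 92751 and 72389 in knockout, against 13558 and 34253 in wild type. Of the 20, 8 were above background nowhere: Cd68, Siglec1, Mrc1, Fcgr4, Vsig4, Ms4a7, Cd163 and Mertk. Siglec1 marks macrophages of the splenic marginal zone and Vsig4 those of the liver, while Cd68, Mrc1 and Cd163 are also found in the red pulp.

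**Figure D3:**
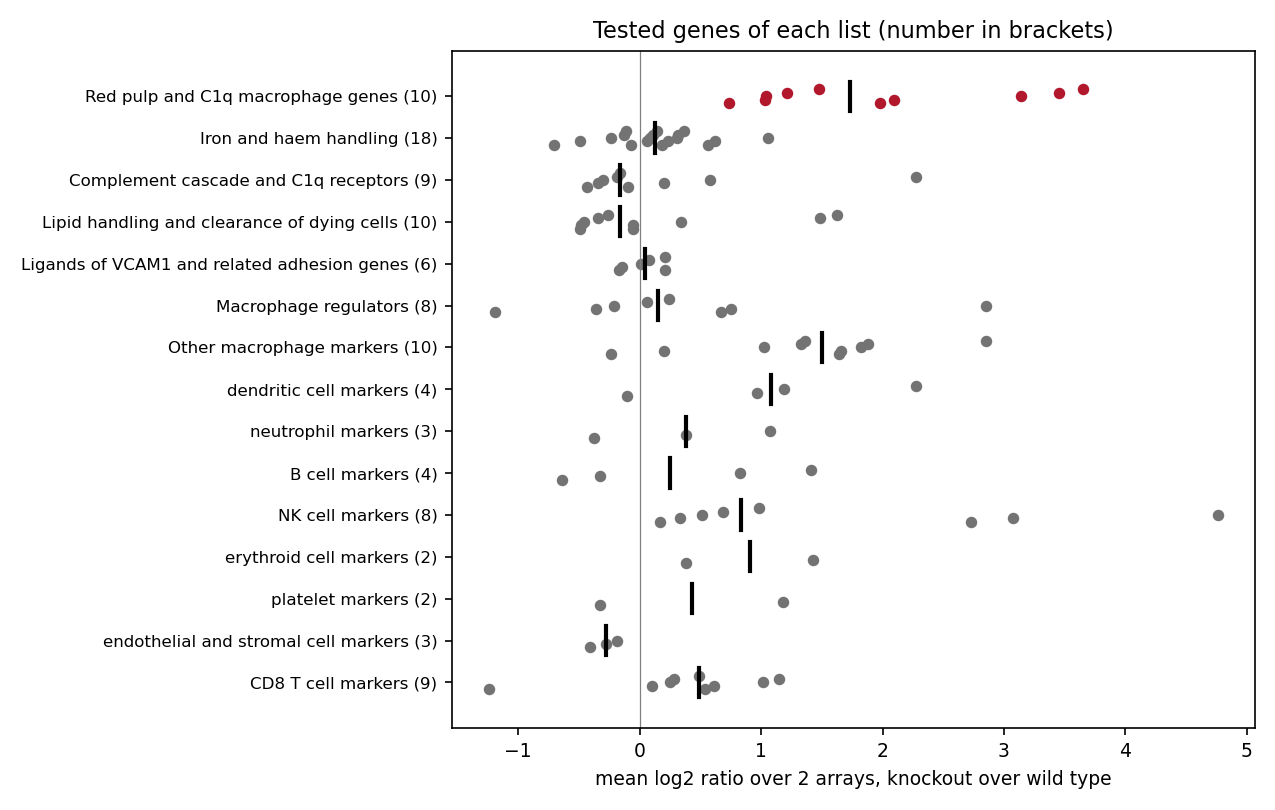
Mean log2 ratio over 2 arrays (knockout over wild type, x axis) of each kept gene, one row for each gene list with the number of kept genes in brackets; vertical bars are list medians. The 10 iron-recycling and C1q genes (red) have a median of 1.73 and the other macrophage markers 1.50, whereas the iron list lies at 0.13.

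Markers of other cell types were set beside them. All 8 NK cell markers were kept, with a median of 0.83 and 3 higher: Fcer1g (3.95 and 5.58), Klrb1c (2.02 and 4.12) and Tyrobp (1.52 and 3.94). Fcer1g and Tyrobp encode signalling chains that macrophages use too. Summed signals of the NK list were 57774 and 102477 in knockout, against 31200 and 40520.0 in wild type. The ratios of these 3 NK genes were larger on array 2, while the median of the 10 genes was 1.67 on array 1 and 1.87 on array 2. Of 4 kept dendritic cell markers, with a median of 1.08 (1.65 on array 1 and 0.51 on array 2), Itgax was the one that passed, and over all 9 with no filter the median was 0.06. Of 2 kept erythroid markers, Hba-a1 gave 2.56 and 0.30, and the beta globin Hbb-bt, which has near-identical copies, gave 1.02 and -0.25 by its brightest probe. Another Hbb-bt probe, above background in all 4 channels, gave -0.57 and -0.14, and Alas2, Slc4a1 and Klf1 were not above background anywhere. Erythroid signals summed to 1286 and 2221 in knockout, against 604 and 2506 in wild type. The B cell list had a median of 0.25 over 4 kept genes, with Blnk at 2.23 and 0.59, Ms4a1 at 1.28 and 0.38, Cd22 at -0.71 and -0.56, and Cd79b at -0.51 and -0.14. Neutrophil markers had a median of 0.38 over 3 kept genes, 0.91 on array 1 and -0.32 on array 2, with Mpo at -0.43 and -0.32, S100a8 at 0.91 and -0.15, and S100a9 at 2.86 and -0.71. Platelet markers had a median of 0.43 over 2, with Itgb3 at 1.04 and 1.32 and Itga2b at -0.49 and -0.16. Endothelial and stromal markers had a median of -0.28 over 3 kept genes. There Col1a1 gave -0.54 and -0.27, Tie1 -0.45 and -0.10, and Kdr -0.34 and -0.03, and Cdh5, Tek, Col3a1, Pdgfrb and Cxcl13 were above background in neither genotype. Summed endothelial and stromal signals were 503 and 550.2 in knockout, against 2715 and 622 in wild type. The medians of the B cell, dendritic cell, neutrophil, erythroid and platelet lists changed sign under at least 1 other filter or with array 2 alone. None of the B cell, neutrophil, erythroid, platelet, endothelial or stromal markers passed the threshold. CD8 T cell markers had a median of 0.49 with 0 past the threshold, among them Cd8b1 (1.11 and 0.93), Cd3e (0.87 and 0.35), Cd2 (0.66 and 0.42) and Cd5 (-0.69 and -1.80). The part of any of these cell types in the ratios of the 10 genes was not tested.

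The genes outside all lists whose pair of ratios lay closest to the medians of the 10 (1.67 and 1.87), by straight-line distance over the 2 arrays, were Fau (1.90 and 1.90), Pde4a (1.48 and 2.01), Klrc3 (1.81 and 2.12), Fuca2 (1.69 and 1.53), Ccl3 (2.00 and 1.74), Klra23 (1.60 and 2.24), Clnk (2.02 and 2.03) and Rps13 (1.83 and 1.50). Their distances ran between 0.23 and 0.41. Fau, Fuca2 and Rps13 were above background in wild type on both arrays, and the other 5 on neither. Fau and Rps13 encode ribosomal proteins, Klrc3 and Klra23 NK receptors and Ccl3 a chemokine.

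The sizes of the ratios depended on the processing, and their signs did not under the settings tried. All 10 genes had ratios above 0 on both arrays in each of 10 other settings in which they were kept, which was all 10 for Hmox1, Cd5l and Apoe and 9 for the other 7, which the strictest filter drops. Not all of these settings are separate checks. The settings that changed only the filter or the probe rule repeated the main values of every gene they kept. The scanner software's ratios and the deposited values are nearly the same numbers. Mean log2 ratios of C1qa ran between 0.58 without background subtraction and 3.67 with the scanner software's ratio. Those of C1qb lay between 0.39 and 2.80, of Spic between 0.59 and 3.11, and of Vcam1 between 0.81 and 4.41. The genes measured in both genotypes moved less, with 1.44 and 2.87 as the ends for Hmox1, 0.88 and 1.91 for Cd5l, and 1.68 and 2.90 for Apoe. C1qc lay between 1.71 and 5.41, Slc40a1 between 1.54 and 4.11 and Emr1 between 1.70 and 5.02.

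**Figure D4:**
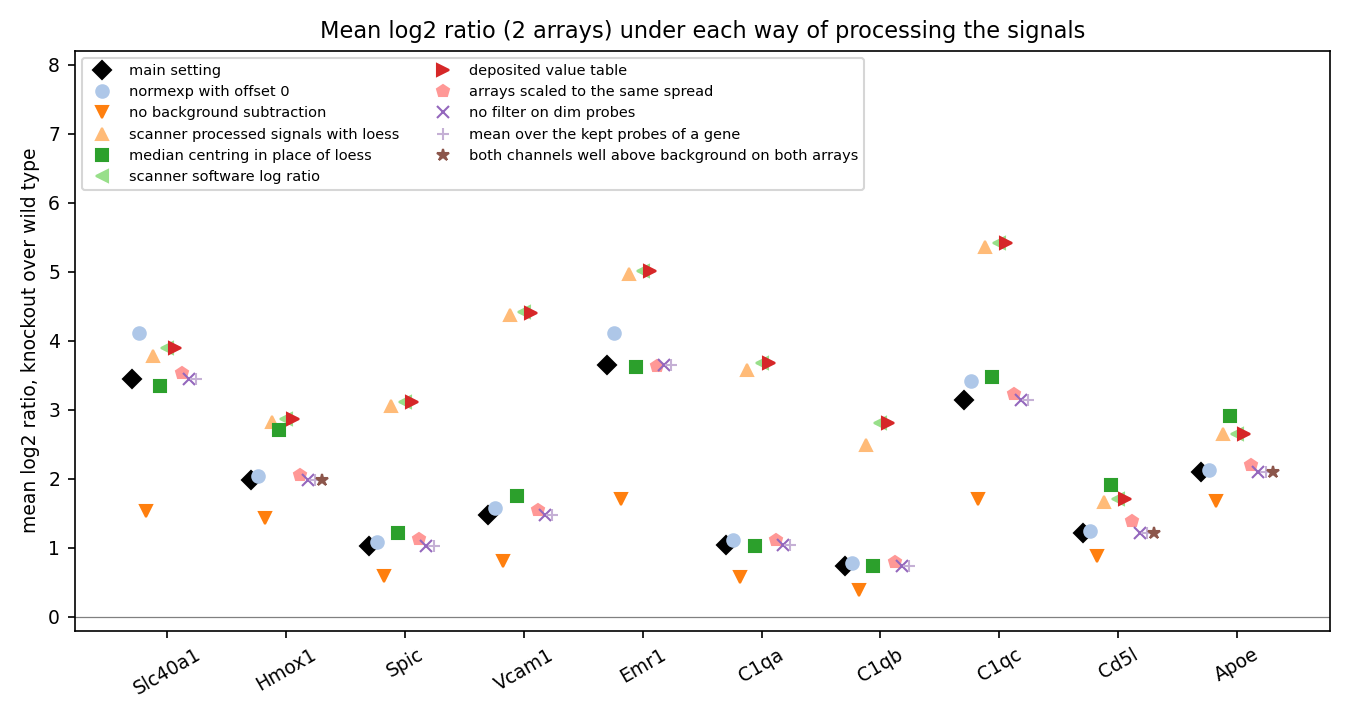
Mean log2 ratio over 2 arrays (knockout over wild type, y axis) of each gene's brightest probe under the main processing (black diamonds) and 10 others (coloured symbols). Every point lies above 0, with the lowest for C1qb without background subtraction (0.39) and the highest for C1qc with the deposited values (5.41).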

How the data were processed

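Per the labels' protocols, RNA came from Trizol and column extraction, and a Kreatech ULS kit labelled it after linear amplification. Per the submitters' processing notes, version 9.5.3.1 of Agilent Feature Extraction read the scans. The deposited scanner files hold linear intensity values (mean signal and local background of each dye), not normalised, per the file headers. Per the file headers they further give log10 values of red over green from the scanner software. The deposited value table holds log10 ratios that matched these to within 0.005 at every spot, with column medians of 0 and 0. Both arrays lay on 1 slide and were scanned together, so no batch could be tested.

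Log2 ratios were computed with limma 3.58.1 in R 4.3.3: normexp background correction (offset 50) on mean signals and median local backgrounds, then loess within arrays, with control and flagged spots at weight 0 and then left out. Spots of a probe were averaged. A gene's brightest probe was used, among those well above background on both arrays in at least 1 shared channel. Of the gene probes, 24375 were named through RefSeq accessions (GRCm38.p6), 6301 by current and 2426 by older symbol, and 8072 kept the name in the files. Probe coordinates are on mm8, as the array design has them per the file headers, and exon positions on that build were not assigned here. Ratios were tested over all kept genes with lmFit and eBayes (two-sided, Benjamini-Hochberg); the estimated prior degrees of freedom were infinite.

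"At least N-fold" compares the knockout mean with, per array, the dim wild type probe or the dimmest wild type probe well above background, whichever was brighter, on log2 values of each channel (loess, then Aquantile). These bounds hold for the main processing and the mean of both arrays, and are open to dye bias, as no array had swapped dyes. Without background subtraction the mean log2 ratios of Spic, Vcam1, C1qa, C1qb, C1qc and Emr1 fell below their bounds. For Spic the mean was then 0.59, against a bound of 0.92 on the log2 scale. Errors are SDs between 2 arrays, a number that limits the precision. The p-values of the main fit rest on 1 standard error shared by all genes (0.50), so a gene's own spread between the arrays does not enter its p-value. Lyz2 passed with log2 ratios of 4.03 and -0.38, whereas Vcam1 did not with 1.41 and 1.55. Where nothing says that samples came from separate animals, that shared error describes only these samples.

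The 10 genes and all gene lists were chosen with earlier results of these data known. Named genes are all 10 with every probe, up to 4 per other list (largest mean ratio among passing genes, otherwise among those of equal sign on both arrays), the 8 nearest genes outside the lists, and Bcl11b. Fth1, Ftl1, Hmox2, Keap1, Nfe2l2, Bach1, Treml4, Fcgr1, Fcgr3, Cd14, Ctss, Mpeg1, Aif1, S100a8, S100a9, Hbb-bt and the genes not above background fall outside that rule and were named after their values were seen. A few listed genes are not reported here. Other background corrections, normalisations, filters, probe rules and each array alone were tried as alternatives.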

Additional observations from a re-analysis of the deposited data

How the results depend on the processing

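The median of the mean log2 ratios over the 10 genes was 1.73 and lay above 0 in every setting tried. It was 1.16 without background subtraction, 2.30 with median centring, 3.31 with the scanner software's processed signals and loess, 3.39 with its own ratio and 3.39 with the deposited values. It was 1.98 over the 3 genes left when both channels had to be well above background. With 1 array alone it ranged from 1.67 to 1.87, a value with no test. The counts of genes past the threshold by limma were 115 higher and 23 lower. They became 27 and 8 without background subtraction, 63 and 1 with median centring, and 25 and 14 of 6194 genes with both channels above background. They were 0 and 0 with the processed signals (754 genes at an unadjusted p under 0.05), the scanner software's ratio (574), the deposited values (569), arrays scaled to the same spread (901) and no filter on dim probes (2478 of 27595 genes), against 904 in the main setting; the cause was not tested. Of the 10 genes' own values under alternatives, 44 moved by more than the SD between arrays and 0 changed sign. Settings that changed only the filter or the probe rule repeated the main values of these genes, so they add nothing on the signs. List medians changed sign in 14 of 167 cases. The lower bounds were recomputed only with a normexp offset of 0 and with each array alone, and all 21 values stayed above 1. They were not recomputed under the other settings, among them no background subtraction. The bounds ranged with 1 array alone from 1.34 to 1.35 for C1qb and from 2.99 to 4.56 for Emr1. Each array sets knockout against wild type in 1 ratio, so the fit is already paired by array and has no further block. Wild type signals near the negative controls limit what can be said of 7 of the 10 genes.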
